A study of Mus musculus with 4 samples.

Results

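The mitochondrial ribosomal protein genes are the nuclear genes whose products make up most of the protein of the mitochondrial ribosome. They were taken here as all rows of the count table with a symbol of Mrpl or Mrps followed by a number, pseudogenes left out, which gave 78 of 55401 genes, 49 named Mrpl and 29 named Mrps. The choice rests on names and used no measured value, but earlier results of these data were known when it was made. The study measured polyadenylated RNA in P14 CD8+ T cells of the mouse, whose transgenic T cell receptor recognises lymphocytic choriomeningitis virus (LCMV). In one group the cells had been transduced with an empty vector, and in the other with a Hic1 overexpression vector. Hic1 is a zinc finger protein that represses transcription. Both groups were sorted from the spleen after infection with LCMV Armstrong, with 2 libraries each, and the comparison asks which transcripts differ when Hic1 is overexpressed. The time point is given as day 32 in the sample labels and as day 7 in the series text. The sources used here do not give the strain, age or sex of the mice, nor whether the libraries came from separate animals, so p-values measure the spread between these libraries.

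Mitochondria carry their own small genome, and the few proteins it encodes, all of them subunits of the respiratory chain and the ATP synthase, are made by a ribosome of their own. The RNA of that ribosome is transcribed in the mitochondrion, while its proteins are encoded in the nucleus, made in the cytosol and imported. Some of these proteins have bacterial counterparts and others were added in the lineage of mitochondria. T cells build up mitochondria, and with them mitochondrial translation, when they are activated.

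By their place in the structure, known from other work, 51 of the genes encode proteins of the large subunit and 26 of the small subunit. Mrps18a and Mrps30 belong to the large subunit in spite of their names. Mrps36, which carries the name of a ribosomal protein, is a subunit of the alpha-ketoglutarate dehydrogenase complex and was placed in neither. Also by earlier knowledge, with no comparison of sequences made here, 47 of the genes were classed as having a bacterial counterpart and 29 as having none. Mrpl55 and Mrps36 were left out of both classes.

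The libraries held 4017346 and 3941364 counts for the empty vector and 7501285 and 8839317 for the Hic1 vector, so depth went with the group. Hic1 had 3 and 5 counts with the empty vector against 314 and 161 with the Hic1 vector, a log2 fold change of 4.58 ± 0.538 (SE; edgeR quasi-likelihood test, adjusted p = 0.00706). Over all genes the same test called 84 higher and 129 lower of 11676, or 1.82%. CD8 T cell markers summed to 7505.3 and 8030.4 CPM (counts scaled to a common library total) without Hic1 and to 8812.4 and 9820.3 CPM with it. B cell markers summed to 83 and 95.7 CPM against 281.4 and 216.8 CPM, mostly from Ighm, the only called gene of the 8, while the defining markers Ms4a1, Pax5 and Ighd were at or near 0. Markers of CD4 T cells, NK cells, red cells and myeloid cells summed to at most 82.6 CPM in any library. The part of these other cells in the results was not tested. Xist was found in the libraries numbered 1 (1885 and 3590 counts) and hardly in those numbered 2 (0 and 3), and the Y-linked Eif2s3y the other way round (0 and 0 against 396 and 951), so the libraries of a group differed in sex. The spread within a group that the main fit uses therefore includes a difference of sex. A block on the library number is also a block on sex.

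None of the mitochondrial ribosomal protein genes passed the test in either direction. Of the 78 genes, 77 had enough counts to be tested, and 0 were higher and 0 lower at an adjusted p below 0.05 (edgeR quasi-likelihood test, adjusted over all genes). Over all genes tested 0.719% were called higher, 1.10% lower and 1.82% in either direction. At an unadjusted p below 0.05 there were 8 higher and 1 lower, against 9.41% and 9.70% of all genes. DESeq2, run in place of edgeR, also called 0. Mrps26 was called higher with no filter on low counts and with the library number as a block, and Mrps26 and Mrpl9 with that block and a GC correction together. The lowest adjusted p was 0.0734, that of Mrps26.

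Differences between the groups were small across the set. The median log2 fold change was 0.10, beside 0.01 over all genes tested, and the values ran from -0.65 (Mrpl13) to 0.79 (Mrps34), with 53 above 0 and 24 below. Under the 16 alternative settings between 42 and 63 were above 0. The size of the change, without its sign, had a median of 0.18 on the log2 scale, compared with 0.302 over all genes. The 95% interval of the fold change lay wholly within 2-fold in either direction for 67 of the 77 genes, or 87.0%, as against 53.1% of all genes tested. The narrowest of these intervals, such as -0.30 to 0.35 for Mrpl18 and -0.30 to 0.40 for Mrps23, were well inside 2-fold. The members were also measured more precisely than the median gene. Their median SE was 0.214, against 0.273 over all genes tested. Their median level by library was 43.2 to 48.8 CPM, against 24.4 to 25.5 CPM. The part of level and precision in the smaller changes and narrower intervals was not tested. In bulk samples, fewer cells of a type and less RNA per cell cannot be told apart.

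**Figure D1:**
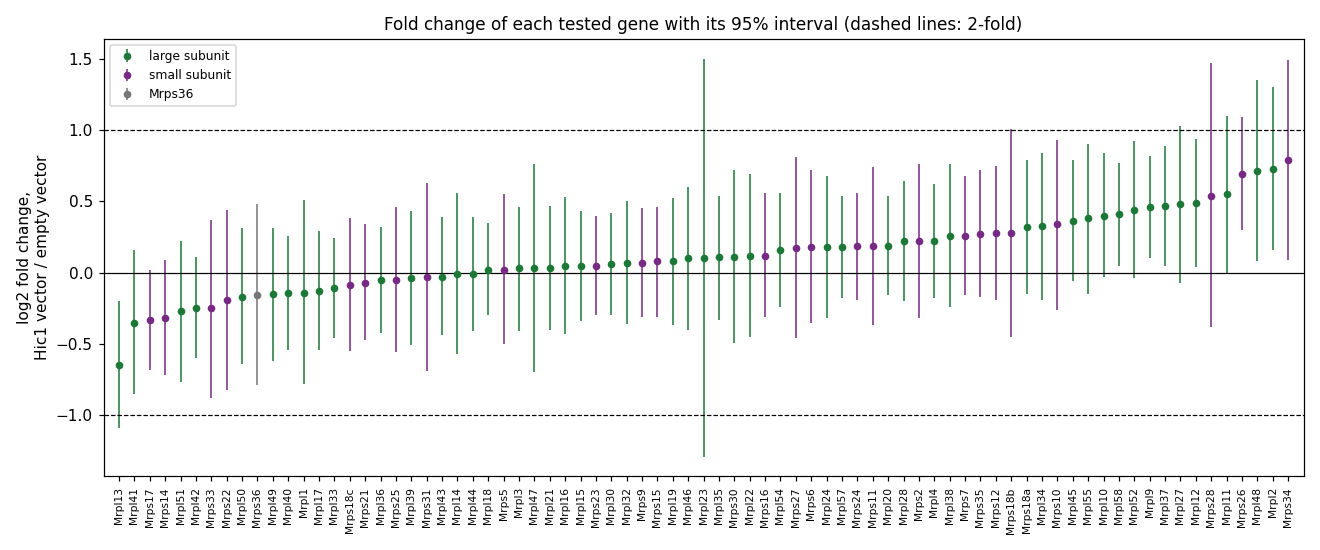
Log2 fold change (Hic1 vector over empty vector, vertical axis) of each of the 77 tested mitochondrial ribosomal protein genes in order of value. Bars show the 95% interval derived from edgeR's fit, and dashed lines mark 2-fold. The values run from -0.65 to 0.79, and the bars of 67 genes stay between the dashed lines.

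The summed level of all 78 genes was 3968.2 and 3912.1 CPM with the empty vector against 4018.9 and 4455.6 CPM with the Hic1 vector. The groups did not overlap, but the lower Hic1 vector library stood closer to both empty vector libraries than to the other Hic1 vector library. As a share of all counts, the set took 0.407% and 0.397% without Hic1, and 0.381% and 0.442% with it, and on that scale the groups overlapped. The large subunit summed to 2717.1 and 2769.9 CPM against 2831.9 and 3127.7 CPM. The small subunit summed to 1233.8 and 1125.0 CPM against 1170.3 and 1313.7 CPM, with overlap. The median log2 fold change was 0.10 over the 50 tested genes of the large subunit and 0.15 over the 26 of the small subunit. The order of the subunits was not stable: the medians were 0.16 and 0.02 without the empty vector library numbered 2, and 0.13 and 0.07 with the GC correction. Without the Hic1 vector library numbered 2 they were 0.04 and 0.06, and without the one numbered 1 they were 0.20 and 0.16. Genes with a bacterial counterpart had a median of 0.11, with 37 of 47 above 0, and those without one had a median of 0.08, with 15 of 28 tested above 0.

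The order of the genes by level was nearly the same in both groups. The Pearson correlation of the log2 group means was 0.962 over the 77 genes, which share their 4 libraries and their scaling. Divided by the length of the principal transcript, the median gene stood at 32.2 CPM per kb and the 9th decile at 11.9 times the 1st. Mrpl33, a small protein of the large subunit, was highest with 352 and 297 CPM per kb with the empty vector against 275 and 326 with the Hic1 vector. Mrps21 of the small subunit followed with 139 and 116 against 117 and 126 CPM per kb, and Mrpl4, a core protein of the large subunit, with 94.6 and 135 against 125 and 142. Mrps21 and Mrpl4 overlapped in range, while every value of Mrpl33 lay above all of theirs. The order depends on the length used: over the union of all annotated exons, Mrpl33 came to 20.4 CPM per kb, and 6 of the 10 highest genes were the same by both lengths.

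At the low end of the tested genes, Mrpl48 of the central protuberance had 4.59 and 2.92 CPM per kb against 6.31 and 6.12. Mrpl47, at the exit of the tunnel, had 5.92 and 4.01 against 3.85 and 6.23, and Mrps5, near the entry of the mRNA, followed with a mean of 5.92 CPM per kb (25 and 27.7 CPM against 25.2 and 28.3 CPM before division by length). The ranges of Mrpl47 and Mrpl48 overlapped. Mrpl53, a large subunit protein near the stalk, was the untested gene, with 1, 3, 4 and 11 counts. Its annotated exons overlap those of another gene, Gm42688, for the most part, and what reads shared with that gene do to its count was not tested.

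**Figure D2:**
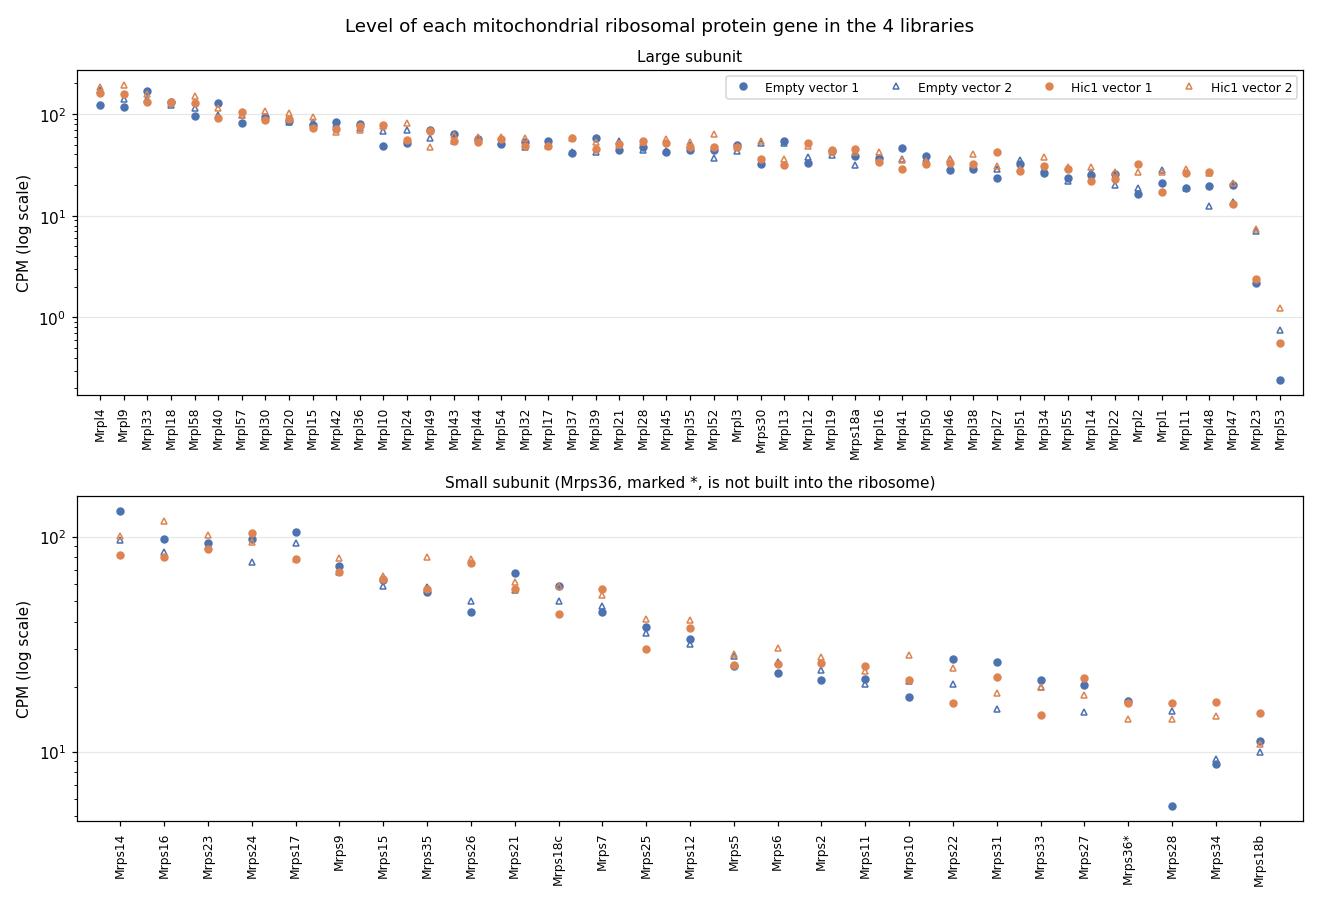
CPM (log axis) of each of the 78 mitochondrial ribosomal protein genes in each of the 4 libraries, with large and small subunit genes in separate panels and 1 point per library. The 4 points of most genes lie close together, with Mrpl53 far below the rest.

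Mrps26, a small subunit protein with no bacterial counterpart, came closest to the threshold. It lies at chr2:130563742-130568695 on the plus strand (mm10). Its level was 44.7 and 50.2 CPM with the empty vector against 75 and 78.6 CPM with the Hic1 vector, with no overlap. The log2 fold change was 0.69 ± 0.181 (SE), with a 95% interval of 0.30 to 1.09 and an adjusted p of 0.0734 (edgeR quasi-likelihood test). The difference was 0.74 within the libraries numbered 1 and 0.64 within those numbered 2. Under 3 of the 16 alternative settings it was called higher.

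In the small subunit, Mrps34, also without bacterial counterpart, had 8.74 and 9.24 CPM against 17.0 and 14.6 CPM. Its log2 fold change of 0.79 ± 0.319 (SE) was the largest of the set, with an adjusted p of 0.206 (edgeR quasi-likelihood test). Of its exon bases, 63.4% are shared with Mapk8ip3 on the opposite strand and 37.0% with Nme3 on the same strand. The overlap with Nme3 makes its counts uncertain in any library type. That with Mapk8ip3 does so where strand is not marked. Mrps17, a conserved protein, pointed the other way, with 105 and 93.4 CPM against 78.8 and 78.7 CPM and no overlap. Its log2 fold change was -0.33 ± 0.16 (SE; edgeR adjusted p = 0.286). Proteins of the head of the small subunit were mixed: Mrps7 and Mrps10 had values of 0.26 and 0.34, Mrps14 of -0.32 and Mrps9 of 0.07, none called. Mrps12, in the decoding centre, had 33.3 and 31.7 CPM against 37.7 and 41.1 CPM, a log2 fold change of 0.28 with an interval of -0.19 to 0.75.

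In the large subunit, the proteins of the L7/L12 stalk, which recruits the translation factors, lay on the same side. Mrpl12, the stalk protein itself, had 33.0 and 38.2 CPM against 51.4 and 48.8 CPM. Mrpl10, its anchor, had 48.3 and 68.2 CPM against 77.7 and 76.6 CPM. Mrpl11, at the base, had 18.7 and 18.7 CPM against 26.5 and 28.5 CPM. In each of them, and in Mrpl54 nearby, the groups did not overlap. The log2 fold changes were 0.49 ± 0.207, 0.40 ± 0.198, 0.55 ± 0.253 and 0.16 ± 0.185 (SE) for Mrpl12, Mrpl10, Mrpl11 and Mrpl54, with edgeR adjusted p of 0.226, 0.294, 0.268 and 0.693. The 4 tested stalk genes had a median of 0.45, and none was called. Under a correction for GC content Mrpl54 went to -0.06 and the median to 0.29, and without the empty vector library numbered 1 the median was 0.28. Their summed level, Mrpl53 included, was 151.0 and 179.1 CPM against 213.0 and 214.3 CPM. Across all genes, groups without overlap in the same direction made up 26.5%.

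The core of the large subunit surrounds the peptidyl transferase centre, where the peptide bond is formed. Mrpl2 had 16.5 and 18.7 CPM against 32.1 and 26.8 CPM, a log2 fold change of 0.73 ± 0.26 (SE; edgeR adjusted p = 0.159). Mrpl27 had 23.3 and 29 CPM against 42.1 and 31.1 CPM, also without overlap (0.48). Mrpl3, Mrpl4 and Mrpl16 of the same region overlapped between the groups, at 0.03, 0.22 and 0.05. The 5 core genes had a median of 0.22, which moved to 0.13 without the empty vector library numbered 1, to 0.48 without the one numbered 2, to 0.13 without the Hic1 vector library numbered 2 and to 0.11 after thinning to the smallest library.

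The central protuberance faces the small subunit, and its 5 genes had a median of 0.10. Mrpl48 stood out among them with 19.7 and 12.5 CPM against 27.0 and 26.2 CPM, a log2 fold change of 0.71 ± 0.291 (SE; edgeR adjusted p = 0.208). Of the others, Mrpl38 had 0.26, Mrpl46 0.10, Mrpl18 0.02 and Mrpl40 -0.14. The 7 genes around the exit of the polypeptide tunnel also had a median of 0.10. Mrpl45, which faces the inner membrane where the products are inserted, had 42.0 and 43.2 CPM against 52.4 and 57.2 CPM, a log2 fold change of 0.36 with an interval of -0.06 to 0.79.

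Mrpl9, a conserved protein, is among the more abundant members of the set. It had 117 and 141 CPM against 159 and 195 CPM, with a log2 fold change of 0.46 ± 0.166 (SE; edgeR adjusted p = 0.164). Mrpl58 is a peptidyl-tRNA hydrolase related to release factors that is built into the large subunit. It had 95.4 and 115 CPM against 128 and 152 CPM, with a log2 fold change of 0.41 ± 0.164 (SE; edgeR adjusted p = 0.202). Mrpl37, without bacterial counterpart, had 41.3 and 42.5 CPM against 58.3 and 57.9 CPM (0.47 ± 0.191, SE; edgeR adjusted p = 0.209). The gap from the higher empty vector library to the lower Hic1 vector library was wider than the difference between the libraries of a group in Mrpl37, but narrower in Mrpl9 and Mrpl58.

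Mrpl13, a conserved protein of the large subunit at chr15:55534094-55557748 on the minus strand, was the gene furthest below 0. Its level was 54.1 and 52.2 CPM with the empty vector against 31.8 and 35.9 CPM with the Hic1 vector, with no overlap. The log2 fold change was -0.65 ± 0.204 (SE), with a 95% interval of -1.09 to -0.20 and an adjusted p of 0.119 (edgeR quasi-likelihood test). Of all 77 genes, both Hic1 vector libraries were above both empty vector libraries in 26 and below both in 9, or 33.8% and 11.7%, beside 26.5% and 24.9% of all genes tested.

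Sequences upstream of the start of 5 of the 12 genes of lowest p show part of what their promoters hold; they were chosen for contrasting motif content after the matches were seen. Each is the plus strand, read 5′ to 3′ from the RefSeq promoter table (GRCm38.p6), and ends before the first annotated exon. The capitals mark GCATGCGC, a site of NRF1, CCGGAAG, the core of ETS factors such as GABPA, and GGGCA, the core that Hic1 binds, each on either strand. They lie at chr2:130563507-130563653, chr3:94443168-94443317, chr11:115403602-115403751, chr11:97041410-97041559 and chr5:129715347-129715496, in the order shown.
Mrps26: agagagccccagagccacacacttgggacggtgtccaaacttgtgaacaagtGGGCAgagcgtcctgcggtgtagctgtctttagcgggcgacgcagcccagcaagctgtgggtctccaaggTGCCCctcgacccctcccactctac
Mrpl9: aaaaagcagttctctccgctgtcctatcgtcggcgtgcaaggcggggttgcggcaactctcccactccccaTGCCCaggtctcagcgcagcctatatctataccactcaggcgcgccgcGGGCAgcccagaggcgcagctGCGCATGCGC
Mrpl58: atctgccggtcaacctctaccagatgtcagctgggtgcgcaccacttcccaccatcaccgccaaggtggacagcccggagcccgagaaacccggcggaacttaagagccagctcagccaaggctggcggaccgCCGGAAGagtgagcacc
Mrpl10: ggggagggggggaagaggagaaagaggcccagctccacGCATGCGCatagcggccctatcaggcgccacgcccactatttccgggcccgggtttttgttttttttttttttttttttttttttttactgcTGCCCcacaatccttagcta
Mrps17: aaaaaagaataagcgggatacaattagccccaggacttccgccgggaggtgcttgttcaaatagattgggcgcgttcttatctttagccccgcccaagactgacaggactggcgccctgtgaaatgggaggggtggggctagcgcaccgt
Mrpl9 carries the NRF1 letters as a palindrome at the end of its stretch, and Mrpl10 carries them further upstream. Both also hold the Hic1 core. Mrpl58 holds an ETS core, Mrps26 the Hic1 core alone, and Mrps17 none of these. For Mrps26 the 103 bases of the window before the start that lie next to it were left out, so this covers only part of its promoter.

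Over the whole set, 69 of the 78 genes had a promoter sequence (250 bases before to 50 after the start). NRF1 letters were found in 8, or 11.6%, against 2.71% of all 32851 promoters and 6.52% of those of tested genes. ETS letters were found in 26, or 37.7%, against 8.86% and 23.1%, and the letters AAGATGGC of YY1 in 12, or 17.4%, against 2.75% and 5.98%. At least 1 of these 3 motifs was present in 38 of the 69 genes, or 55.1%, against 13.3% of all promoters. These shares are not alike, since a gene counted if any of its promoters matched, while all promoters were counted singly. The share among tested genes was not taken for the 3 motifs together. For each motif alone it was above that of all promoters. The Hic1 core GGGCA, a short run of letters, was present in 40, or 58.0%, against 53.5% of all promoters and 60.3% of those of tested genes. Genes with the Hic1 core had a median log2 fold change of 0.08 and those without it 0.09. The medians with and without the motif were 0.10 and 0.09 for NRF1, 0.12 and 0.08 for ETS, and 0.18 and 0.06 for YY1. A match of letters is a description and not evidence of binding.

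The difference was not the same within the libraries numbered 1 and within those numbered 2. Its median over the 77 genes was 0.05 within number 1 and 0.19 within number 2, whereas over all genes tested it was 0.02 and 0.01. The value within number 2 was the higher one for 53 of the 77 genes, or 68.8%, compared with 48.6% of all genes. It was so for 87.8% of the cytosolic ribosomal protein genes (medians -0.02 and 0.28) and 80.5% of the nuclear genes for oxidative phosphorylation (-0.09 and 0.15). Both values were above 0 for 38 genes, both below 0 for 12, and the signs were opposite for 27. Over the 11676 genes tested these counts were 4059, 3854 and 3759.

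**Figure D3:**
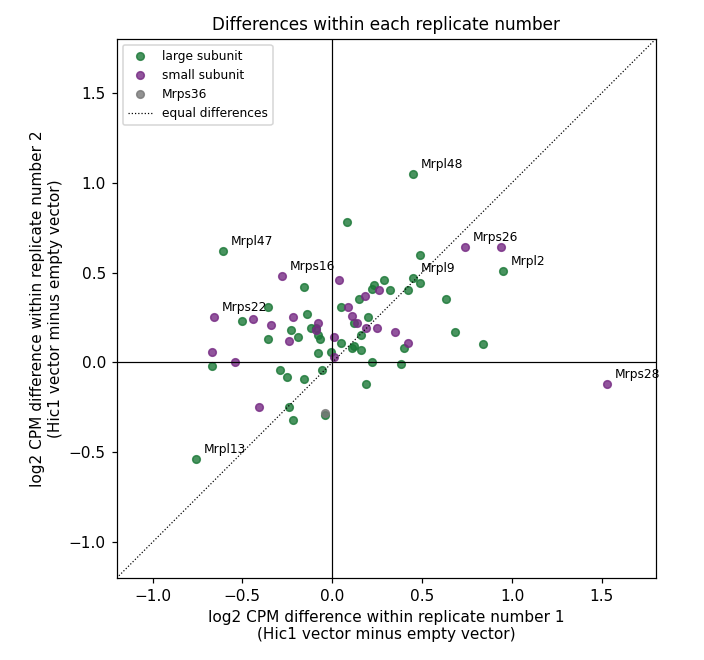
Log2 CPM difference (Hic1 vector minus empty vector) within the libraries numbered 2 against that within the libraries numbered 1, 1 point per tested mitochondrial ribosomal protein gene. In 38 of the 77 genes both differences are above 0, compared with 4059 of all 11676 genes tested. Mrps28 lies farthest from the line of equal values.

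The largest gaps between the numbers were found in Mrps28, Mrpl47, Mrps22 and Mrps16. Mrps28, the counterpart of bacterial S1, had 5.58 and 15.5 CPM against 16.8 and 14.2 CPM, a difference of 1.53 within number 1 and of -0.12 within number 2. The low empty vector library numbered 1 sets this gap. Mrpl47 had 19.9 and 13.5 CPM against 13.0 and 21 CPM, with differences of -0.61 and 0.62. Mrps22 and Mrps16 had -0.66 and 0.25, and -0.28 and 0.48. Their log2 fold changes over all libraries, 0.54, 0.03, -0.19 and 0.12 in the order above, average opposite values.

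Genes that followed the library number and not the vector were about as frequent in the set as elsewhere. In 14 of the 77 genes both libraries numbered 2 were above both numbered 1, and in 8 they were below, or 18.2% and 10.4%, compared with 14.6% and 13.8% of all genes. The 3 with the highest ratio, chosen after their values were seen, were Mrpl23, Mrps30 and Mrpl1. Mrpl23, at the exit of the tunnel, had 2.18 and 2.39 CPM in the libraries numbered 1 and 7.00 and 7.41 CPM in those numbered 2. Its log2 fold change with the vector was 0.10, with the widest interval of the set, -1.29 to 1.5, which does not exclude a 2-fold change. A pseudogene copy, Mrpl23-ps1, had 10, 8, 22 and 19 counts, and reads that fit both copies make the level of Mrpl23 uncertain. Mrps30 had 32.5 and 36.5 CPM against 52.0 and 54.7 CPM, and Mrpl1, the protein of the L1 stalk, 21.1 and 17.2 CPM against 28.0 and 27.2 CPM. Sex differed with the number, and its part in these genes was not tested.

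The fold change of the genes moved with the GC content of their transcripts. The Pearson correlation across the 77 genes was 0.459, compared with 0.242 across 11667 genes with a value, given as descriptions since genes share their libraries. The correlation with the log2 of transcript length was -0.0549. The median GC content of the set, 49.7%, was close to the 49.0% of all genes tested. Mrps34 and Mrpl2 are GC-rich, Mrpl13 and Mrps17 GC-poor. With the trend of counts on GC content removed from each library, Mrps34 went from 0.79 to 0.58, Mrpl2 from 0.73 to 0.52, Mrpl13 from -0.65 to -0.48 and Mrps17 from -0.33 to -0.21. Mrps26 and Mrpl48 went the other way, to 0.73 and 0.82. None of these 6 was called by that fit.

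**Figure D4:**
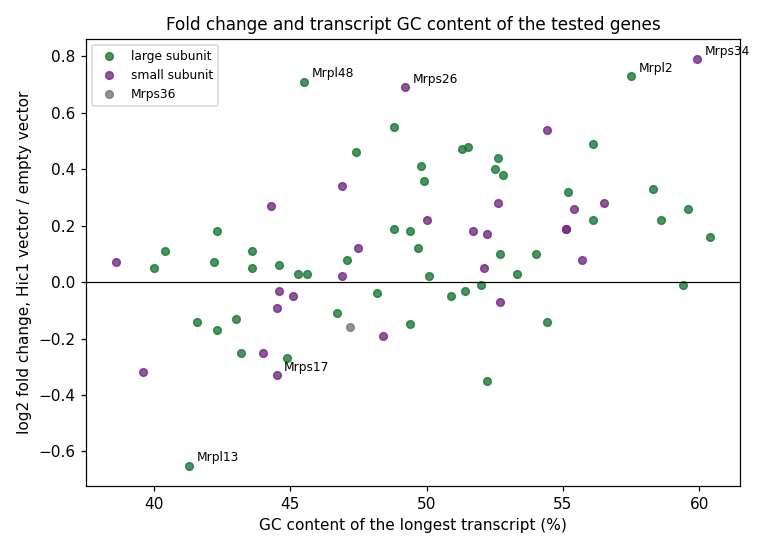
Log2 fold change (Hic1 vector over empty vector) against the GC content in percent of the longest transcript, 1 point per tested mitochondrial ribosomal protein gene, coloured by subunit. Values are on the whole higher on the GC-rich side (Pearson r = 0.459), with Mrpl48 and Mrps26 above the others of like GC content.

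Many of the genes share their start region with another gene. A protein-coding gene that starts within 1000 bases in the opposite direction was found for 33 of the 78 genes, or 42.3%, against 18.5% of the 9897 protein-coding genes tested. Mrpl46 and Mrps11 are such partners of each other, with log2 fold changes of 0.10 and 0.19. Other partners also serve mitochondria: Ndufs6 next to Mrpl36 and Ndufb5 next to Mrpl47 encode subunits of complex I, Twnk next to Mrpl43 the helicase of mitochondrial DNA, and Sars2 next to Mrps12 a mitochondrial tRNA synthetase. Of the 33 partners, 30 were tested and, beside 1.82% of all genes tested, 1 was called. That was Rab6a, a GTPase of Golgi traffic, which fell by 1.60 on the log2 scale (SE 0.203, edgeR adjusted p = 0.00706) while its neighbour Mrpl48 had 0.71. The exons of these neighbours overlap on opposite strands, so part of the reads cannot be assigned to one of them without strand. Over the set, 33 genes share exon bases with another gene and 45 do not, and their medians were 0.11 and 0.10.

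The ribosome also holds proteins whose genes have other names, and none of the 5 examined was called, beside 1.82% of all genes tested. Dap3, a GTP-binding protein of the small subunit, had 0.00, Chchd1 0.23, Aurkaip1 0.18, Ptcd3 -0.14 and Gadd45gip1 0.10, with a median of 0.10 as in the main set. Aurkaip1 had 114 and 117 CPM against 122 and 140 CPM, and Dap3 38.6 and 54.5 CPM against 52.8 and 40.5 CPM. Under a correction for GC content Aurkaip1, Gadd45gip1 and Dap3 went to -0.02, -0.08 and -0.02 and Ptcd3 to 0.02, each with its sign turned.

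Among 28 assembly factors, which modify the ribosomal RNA and join the subunits, 0 were called, beside 1.82% of all genes tested. At that share, lists of this size would hold few calls or none. The factors had a median of 0.23, with 19 above 0. Those of lowest p were Ddx28, an RNA helicase of large subunit assembly, and Mtg2, a GTPase of the same step. Ddx28 had 62.9 and 72.7 CPM against 94.5 and 123 CPM, a log2 fold change of 0.68 ± 0.182 (SE; edgeR adjusted p = 0.0767). Mtg2 had 16.7 and 19.5 CPM against 36.0 and 32.0 CPM, a log2 fold change of 0.90 ± 0.248 (SE; edgeR adjusted p = 0.0852). Mpv17l2 and Rbfa had 0.49 and 0.56, again without overlap.

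Of 13 genes of mitochondrial translation, which include factors of initiation, elongation and release, 0 were called, beside 1.82% of all genes tested. Their median was 0.06. Mtrf1l, a release factor, had 20.6 and 9.74 CPM against 4.22 and 5.70 CPM, a log2 fold change of -1.55 ± 0.419 (SE; edgeR adjusted p = 0.0803). Tufm, the elongation factor that brings the tRNA, had 33.7 and 45.7 CPM against 54.2 and 51.7 CPM (0.41), and Mtif3, an initiation factor, 18.9 and 24.2 CPM against 34.6 and 28.3 CPM (0.54). Gfm2, which splits the ribosome after release, had -0.35. The 20 synthetases and amidotransferase subunits that charge mitochondrial tRNAs had 0 calls and a median of -0.02, with Tars2 and Sars2 at 0.74 and 0.65 and Yars2 and Iars2 at -1.39 and -1.02.

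Of 17 tested genes that copy, transcribe and process mitochondrial DNA and RNA, 1 was called, beside 1.82% of all genes tested. Polg, the catalytic subunit of the mitochondrial DNA polymerase, fell from 50.2 and 43.7 CPM to 22.7 and 24.4 CPM (log2 fold change -0.99 ± 0.222, SE; edgeR adjusted p = 0.0482). It stood just inside the threshold and was called in 7 of the 16 alternative settings, with adjusted p from 0.0104 to 0.312, the highest without the empty vector library numbered 1. Polrmt, the RNA polymerase, had 30.6 and 31.0 CPM against 56.2 and 46.1 CPM (0.73; edgeR adjusted p = 0.102). Tefm and Prorp, at 1.13 each, had few counts.

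The RNAs of the ribosome itself were lower in both Hic1 vector libraries without passing the test. mt-Rnr2, the RNA of the large subunit, had 146492 and 99341 counts with the empty vector against 168834 and 141835 with the Hic1 vector, which is 35600 and 24800 CPM against 23800 and 16200 CPM. The log2 fold change was -0.60 ± 0.236 (SE; edgeR adjusted p = 0.248), and the libraries of a group differed from each other nearly as much as the groups did. mt-Rnr1, the RNA of the small subunit, had 175 and 147 CPM against 129 and 138 CPM (-0.27 ± 0.155, SE; edgeR adjusted p = 0.376). These libraries were primed on poly(A) tails, so the levels of the ribosomal RNAs reflect the part that carries one. Of the 13 mRNAs that the ribosome translates, 8 were tested and 0 called, beside 1.82% of all genes tested. The median of the 8 was 0.07. mt-Nd2 came closest, with 74.8 and 85.4 CPM against 134 and 121 CPM (0.67 ± 0.159, SE; edgeR adjusted p = 0.0571), and mt-Co1 had 3300 and 3410 CPM against 3610 and 3640 CPM (0.11). The other 5, mt-Co2, mt-Co3, mt-Atp6, mt-Atp8 and mt-Nd4l, had at most 3 counts in any library and were not tested. Whether these counts reflect the level of the transcripts or the way reads were assigned was not tested, so they do not show absence.

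**Figure D5:**
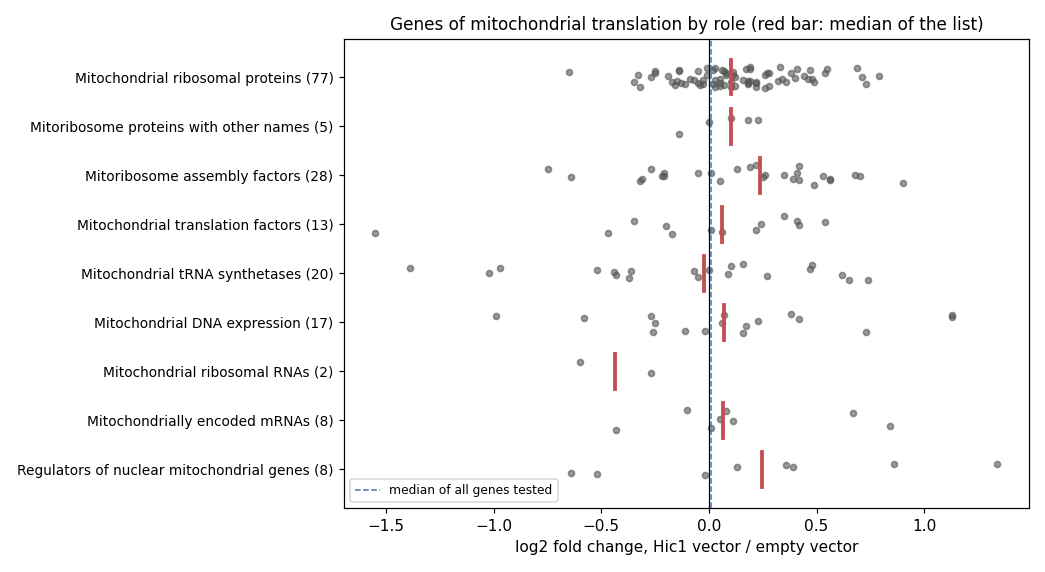
Log2 fold change (Hic1 vector over empty vector, horizontal axis) of each tested gene of mitochondrial translation by role, with the number tested in brackets, a red bar at the median of each list and a dashed line at the median of all genes. The mitochondrial ribosomal proteins spread less than the factors, synthetases and regulators, from -0.65 to 0.79.

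Among 8 tested regulators of nuclear genes for mitochondria, 1 was called, beside 1.82% of all genes tested. Myc, a transcription factor that drives ribosome and mitochondrial biogenesis, rose from 17.2 and 19.5 CPM to 51.8 and 42.2 CPM (log2 fold change 1.34 ± 0.239, SE; edgeR adjusted p = 0.0238). Without the empty vector library numbered 1 it was not called (edgeR adjusted p = 0.176, the highest of the 16 alternatives, which began at 1.13e-05). Gabpa, an ETS factor, had 80.3 and 50.5 CPM against 36.3 and 47.3 CPM (-0.64; edgeR adjusted p = 0.192), Yy1 had 0.39, and Ppargc1b, a coactivator, 0.86 at under 6 CPM. A list of 15 proliferation genes had 0 calls, a median of -0.19 and 2 members above 0, with Tyms and Rrm2 at -0.49 and -0.45. Top2a was lowest at -0.96, with an interval of -2.07 to 0.16. Only 3, or 20.0%, were lower without overlap of the groups, against 24.9% of all genes. In 9, or 60.0%, both libraries numbered 1 were above both numbered 2, against 13.8% of all genes.

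Genes of the cytosolic ribosome and of the respiratory chain give a measure of how the mitochondrial ribosome compares with its relatives. Of 82 tested cytosolic ribosomal protein genes, 1 was called, Rpl18, which rose by 0.76 ± 0.132 on the log2 scale (SE; edgeR adjusted p = 0.0225), and the median was 0.15. Of 77 tested nuclear genes for subunits of oxidative phosphorylation, 0 were called and the median was 0.05. Over all genes tested 1.82% were called. The 95% interval was within 2-fold for 78 of the cytosolic ribosomal genes and 72 of the respiratory genes, next to 67 of the mitochondrial ribosomal genes. No test of a difference between the sets was made.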

How the data were processed

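Whole-number read counts per gene were deposited by the authors for 4 libraries of polyadenylated RNA, 2 per group, with Smart-seq2 on 5 µl of a lysate of 1000 resorted cells and 12 PCR cycles, per the labels' protocols. The submitters' processing notes name mm10, featureCounts 1.5.3, STAR 2.5.2b, Trimmomatic 0.38 and DESeq2 1.3.2, without their roles. The annotation release and the strand setting were not given in the sources used here. All per-sample columns of the count table were used, and the normalized table was not.

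Genes were kept by filterByExpr (minimum count 10), scaled by TMM and tested by group in edgeR 4.0.16 under R 4.3.3 (quasi-likelihood F test, robust, prior count 2), with Benjamini-Hochberg adjustment over 11676 genes and a call at 0.05. CPM uses TMM-scaled library sizes, and fold changes are log2 of Hic1 vector over empty vector. The SE was derived from that fit as the size of the log2 fold change over the square root of F. The 95% intervals use this SE and a t distribution. Its degrees of freedom, with a median of 11.9 over the tested members, include those that edgeR borrows from other genes. The common biological coefficient of variation was 0.195. The test was tested on simulated data.

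Coordinates, exon overlaps, lengths and GC content are from GENCODE M21, in which 99.5% of the identifiers and all 78 members were found. Promoters are from RefSeq (GRCm38.p6), with 9 of the 78 genes not matched.

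The members and gene lists were chosen with earlier results of these data known. Any member could be named. SE and adjusted p are given for the 12 of lowest p. The 3 highest and 3 lowest per kb and the 4 with the largest gap between library numbers are described by level or fold change. From the longer of the other lists, up to 4 genes of lowest p are named, some with a fold change alone. There were 16 alternative settings: other scaling, filters, tests, corrections for GC content and length (loess span 0.3), thinning, a replicate block and omission of each library. Another 2 were added after the data were seen. One listed name, Mrpp3, was not in the count table, being an older name of Prorp.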

Additional observations from a re-analysis of the deposited data

How the results depend on the processing

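The count of mitochondrial ribosomal protein genes called lower was 0 under every one of the 16 alternatives. The count called higher was 1 with no filter on low counts and 1 with a replicate block (Mrps26 in each), 2 with a GC correction and replicate block together (Mrps26 and Mrpl9), and 0 under the other 13. Their median log2 fold change was 0.03 with library sizes alone, 0.17 with no filter, 0.07 with a length correction, and 0.04 to 0.19 when each library was left out in turn, the lowest without Hic1 vector replicate 2 and the highest without Hic1 vector replicate 1. It was 0.10 over the 45 members that share no exon and 0.11 without Mrps36, both added after the data were seen.

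The count over all genes moved more. It was 321 with library sizes alone, 819 with no filter, 422 with DESeq2, 121 with limma voom, 140 without the robust option, 111 after thinning, 103 with the GC correction and 93 with the length correction. With a library left out it ran from 8 (without empty vector replicate 1) to 318. With the replicate number as a block it was 794, and 585 with the GC correction and block. The labels do not say that the numbers pair the libraries; the deviations of same-numbered libraries from their group means correlated at 0.239 over all genes and 0.253 over the members. Hic1 was not called by limma voom (4.68) or without empty vector replicate 1 (4.34), and ranged from 3.81 to 5.02 with a library left out.

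Over 55 named genes, 803 of 874 values kept direction and call, 30 passed the threshold where the reported value had not, 10 lost it and 31 changed sign. The sign changes were all in genes with reported values between -0.19 and 0.22, and the cause was not tested. With the GC correction, then with the block as well, Aurkaip1 went to -0.02 and -0.03, Gadd45gip1 to -0.08 and -0.08, Dap3 to -0.02 and -0.02 and Ptcd3 to 0.02 and 0.00. Dap3 was also -0.01 with median ratio size factors, -0.08 with library sizes alone and -0.02 at a minimum count of 30. Mrpl47 was -0.04 with library sizes alone, -0.04 after thinning and -0.04 with the length correction, Mrps21 was 0.05 with the length correction, and Mrps5 was -0.05 with library sizes alone and -0.00 at a minimum count of 30.
With a library left out, the ranges of the genes that changed sign were Mrpl33 -0.24 to 0.02, Mrps21 -0.20 to 0.07, Mrpl4 -0.01 to 0.48, Mrps5 -0.06 to 0.11, Mrpl47 -0.35 to 0.33, Mrps22 -0.48 to 0.05, Mrps16 -0.18 to 0.38, Ptcd3 -0.43 to 0.12 and Dap3 -0.22 to 0.26. Libraries of the empty vector had the fewer counts, and the smallest counts, such as those of Mrpl53 and Mrpl23, limit what could be detected there.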
